A study of Mus musculus with 6 samples.

Results

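The Nr4a and Egr transcription factors and the Nab corepressors were followed through the maturation of mouse CD8 lineage thymocytes. The members are the 8 genes Nr4a1, Nr4a2, Nr4a3, Egr1, Egr2, Egr3, Nab1 and Nab2, taken by gene symbol from the platform annotation. They have 19 probes among the 34945 probes with a single symbol, and they are 8 of the 18193 genes those probes represent. The mice, aged 5 to 6 weeks, were N15 TCR tg+/+ (homozygous for a T cell receptor transgene), RAG-2-/- and of the H-2b haplotype, in every group alike. Without Rag2 thymocytes cannot assemble receptor genes of their own, so the 3 populations bear the transgenic receptor. Sorting by surface CD4 and CD8 used 6 mice of matched age and sex, in 2 independent experiments, and each stage has 2 arrays. The stages are DP (CD4+CD8+, immature), CD4intCD8+ (surface CD4 intermediate, maturing) and CD8SP (CD4-CD8+, mature). The labels do not say which mice went into which array, so the p-values measure only the spread between these arrays, which may be technical.

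Nr4a proteins are orphan nuclear receptors whose genes are switched on within a short time of T cell receptor engagement; Nr4a1, also called Nur77, is known for its part in the death of self-reactive thymocytes and its expression is used as a readout of receptor signal. Egr proteins are zinc finger factors induced through the Ras and MAP kinase pathway that act in positive selection. Nab1 and Nab2 bind Egr proteins and repress their activity, and Nab2 is itself known as an Egr-induced gene.

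The sorted populations were checked against cell type markers. Of 8 T cell markers 7 were on the array, and their summed intensity lay at 14672 and 15508 for DP, 11933 and 9111 for CD4intCD8+, then 10799 and 9179 for CD8SP. Of the 6 tested 2 fell in CD4intCD8+ against DP, Cd8a and Cd8b1 (both -0.84 in log2), where 4.84% of all genes were called lower. In CD8SP against DP 3 fell, Cd8a (-0.98), Cd8b1 (-0.69) and Cd3d (-0.47), where 8.35% were called lower. Cd3e, Cd3g and Ptcra were not called in either. Cd4 transcript, which the sort reads as protein, was 351 and 515 in DP and between -68.6 and 11.8 on the later arrays, CD4intCD8+ included. Over 4 B cell markers the DP sums were 153 and 193, the CD4intCD8+ sums 194 and 88.4 and the CD8SP sums 227 and 220.4. Cd79a and Pax5 were under the filter on dim genes (an intensity of 30.8) on every array. Ms4a1 read 92.1 and 127 for DP, 111 and 27.3 for CD4intCD8+, then 124 and 119 for CD8SP. Cd79b read 31.9 and 34.9, 37.3 and 30.9, then 68.5 and 66.0 at the same stages. The sums were 153 to 215 over 5 myeloid, 96.6 to 135 over 5 dendritic, 117 to 143 over 5 epithelial and 61.9 to 123 over 3 erythroid markers. Of the tested markers outside the T cell list, 1 (Cd79b, of B cells) was higher in CD8SP than in DP, where 11.5% of all genes were called higher. The part of these markers in the results was not tested. The ratio of the 3' to the 5' actin probe, a measure of RNA integrity, was 1.98 and 2.14 for DP. It was 2.37 and 3.47 for CD4intCD8+, then 2.28 and 2.62 for CD8SP, each in replicate order. Both DP arrays lay below every later array. Stage and ratio thus cannot be fully told apart in comparisons with DP, also where the ratio is a covariate. In sorted bulk RNA, fewer cells with a transcript and less of it per cell cannot be told apart.

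From DP to CD4intCD8+ cells, 3 of the 8 genes rose (Nr4a1, Nr4a3 and Egr3), 0 fell and 5 were not called; 3 rises and 0 falls had an unadjusted p under 0.05. A call is an adjusted p under 0.05 in limma's test over 10916 genes, Benjamini-Hochberg adjusted. Over all of these genes 6.86% were called higher and 4.84% lower, 11.7% in all. No share of all genes is given at an unadjusted p under 0.05, so counts at that threshold, here and below, are descriptions only. From DP to CD8SP the same 3 genes rose and Egr1 and Egr2 fell, against 11.5% of all genes called higher and 8.35% lower (19.8% in all). Both comparisons use the same DP arrays. Between CD4intCD8+ and CD8SP 0 of the 8 passed the test, at an unadjusted p under 0.05 2 did (Egr3 higher, Egr1 lower), and 0.119% of all genes were called (0.101% higher, 0.0183% lower). The median log2 change of the 8 genes was 0.02, -0.07 and 0.09 in these comparisons, and that of all genes tested 0.01, 0.00 and 0.01. Members were thus called in both directions, and the families are described in turn.

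**Figure D1:**
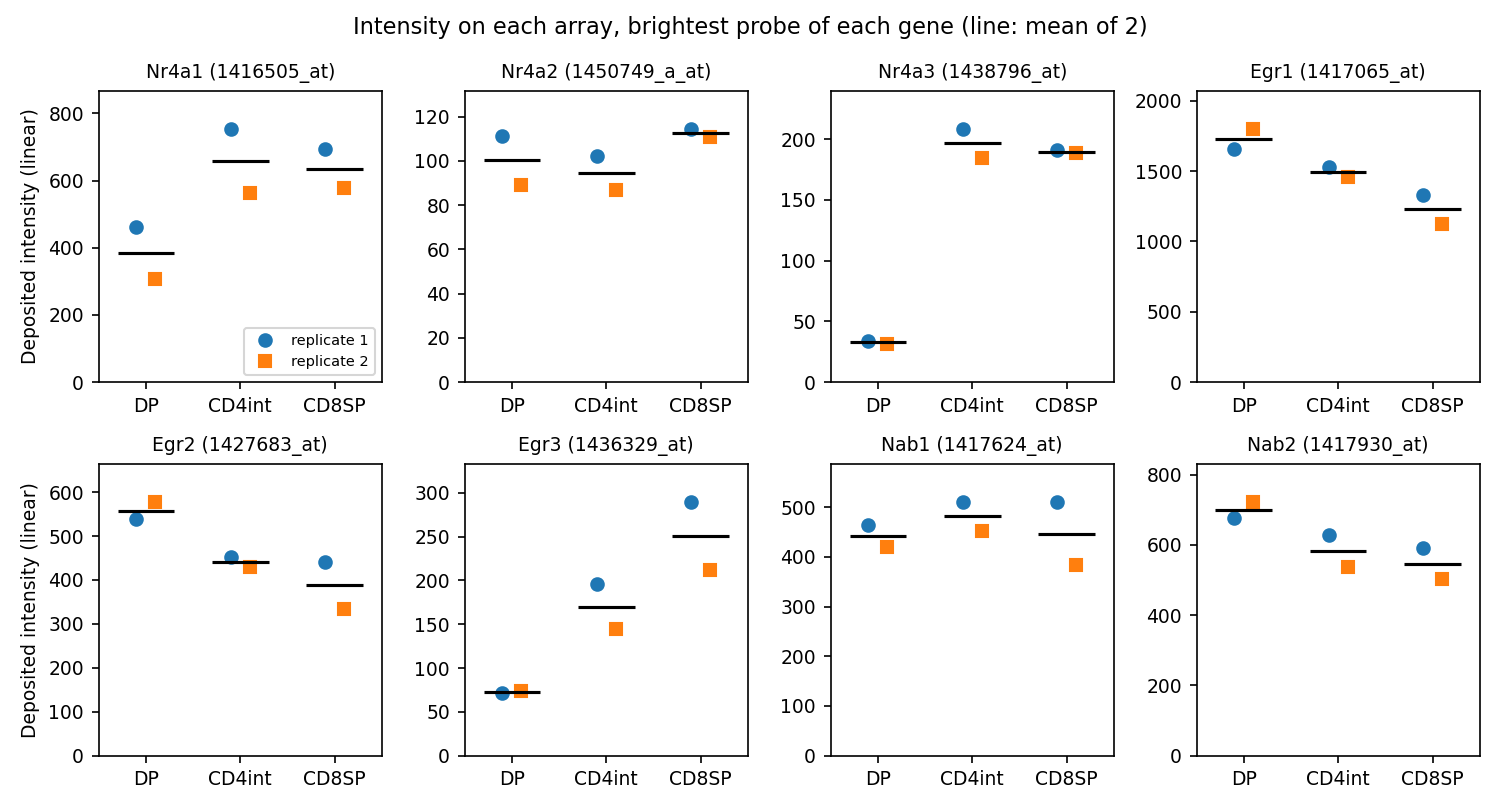
Deposited intensity (linear, y axis from 0) of the brightest probe of each of the 8 genes on each array, for the DP, CD4intCD8+ (CD4int) and CD8SP stages (x axis); circles are replicate 1, squares replicate 2 and lines the mean of 2. Nr4a3 stands at 31.6 and 33.7 in DP and between 185 and 209 on the later arrays, while Egr1 steps down from stage to stage.

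Nr4a3 had the largest change of the 8 genes. On probe 1438796_at the DP arrays read 33.7 and 31.6 in intensity, the CD4intCD8+ arrays 209 and 185, and the CD8SP arrays 191 and 189. Both later stages lay wholly above DP and overlapped with each other. Nr4a3 rose by 2.39 ± 0.14 on the log2 scale (SE; limma adjusted p = 0.000333) from DP to CD4intCD8+, a 5.25-fold change, which placed it at rank 5 among the rises of all genes tested. Fold changes here are on the log2(intensity + 5.84) scale and understate the change of dim genes, and the DP level of Nr4a3 lay close to the filter. From CD4intCD8+ to CD8SP its log2 change was -0.05 (95% interval -0.37 to 0.28; adjusted p = 0.954). From DP to CD8SP it rose by 2.35 ± 0.14 (adjusted p = 4.15e-05). The rise into CD4intCD8+ was called in all 17 alternative settings of the processing (log2 change 1.33 to 2.55), the lowest with the mean of all 3 probes.

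The level of Nr4a3 at the intermediate stage was also compared with the mean of DP and CD8SP, which asks whether the step into CD4intCD8+ and the step out of it differ. Nr4a3 had the largest positive value of the 10916 genes, 1.22 ± 0.12 (adjusted p = 0.0449), and was the 1 gene called higher, 0.00916% of those tested; 0 were called lower. With the replicate number as a block 136 genes were called higher and 79 lower, and without CD4intCD8+ replicate 1 the counts were 33 and 28. Because its CD4intCD8+ and CD8SP arrays overlapped, the value describes a step up followed by a level and no peak. The call held in 6 of 15 alternatives, with adjusted p from 0.00819 with the replicate number as a block to 0.399 without DP replicate 2. It was lost without DP replicate 1 (0.317), CD8SP replicate 1 (0.0983) or CD8SP replicate 2 (0.111).

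A second Nr4a3 probe, 1421080_at, read 21.0 and 16.1 for DP, 38.9 and 55.5 for CD4intCD8+, then 47.6 and 42.8 for CD8SP. Its stages ran in the same order as those of the brighter probe, without overlap between DP and the later stages. Tested by itself in a fit over all probes it rose by 1.11 from DP to CD4intCD8+ (adjusted p = 0.024); it passed the filter through its later stages, so this call is a description and adds no support. The third probe, 1421079_at, lay between 7.26 and 17.5 and was not tested.

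Nr4a1 was higher in both later stages than in DP. Its intensity was 461 and 307 for DP, 755 and 565 for CD4intCD8+, then 693 and 577 for CD8SP. Each later array lay above both DP arrays, and the later stages overlapped with each other. The log2 change was 0.79 ± 0.21 (adjusted p = 0.0425) from DP to CD4intCD8+ and 0.74 ± 0.21 (adjusted p = 0.0371) from DP to CD8SP, or 1.72-fold and 1.67-fold. From CD4intCD8+ to CD8SP it was -0.05 (95% interval -0.52 to 0.43; adjusted p = 0.970).

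The Nr4a1 calls lay close to the threshold. The call against DP at the intermediate stage was lost without DP replicate 2, the array with the lowest Nr4a1 value (log2 change 0.50, adjusted p = 0.208), and without CD4intCD8+ replicate 1 (0.58, 0.125). The call at CD8SP was lost without DP replicate 2 (0.45, 0.214), CD8SP replicate 1 (0.61, 0.151) or CD8SP replicate 2 (0.87, 0.0665). With the replicate number as a block the adjusted p were 0.000898 and 0.000635, the lowest over the alternatives, while with no intensity trend both calls were lost (0.0833 and 0.0735). At the intermediate stage the call was also lost without the filter (0.0512) or with the mean of all probes (0.0587), and the change was 1.25 with the actin covariate.

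Nr4a2 was measured by 6 probes, of which 5 averaged under the filter on dim genes. The brightest, 1450749_a_at, read 111 and 89.1 for DP, 102 and 86.9 for CD4intCD8+, then 115 and 111 for CD8SP, with DP overlapping each later stage and CD8SP above CD4intCD8+. Its log2 change was -0.08 (95% interval -0.45 to 0.30) from DP to CD4intCD8+ and 0.17 (-0.21 to 0.54) from DP to CD8SP, with adjusted p of 0.806 and 0.529. Both intervals end below the change of Nr4a3. The other 5 probes lay between 1.08 and 39.0 over all arrays.

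Sequences before a listed transcript start of each Nr4a gene are printed because Nr4a1 and Nr4a3 rose at the same step and Nr4a2 was not called. Those of Egr2 and Nab1 are printed for comparison with them. Each is the 250 bases upstream of a transcript start in RefSeq's GRCm38.p6 annotation, 5' to 3' on the gene's strand; 6 of the 8 members matched, and Egr1 and Egr3 did not. The sources used here do not say which start the probes report on. Capitals mark the CRE core bound by CREB-type factors (CGTCA), the EGR site (GCGNGGGCG) and the CArG box of serum response factor, each searched on both strands. The windows are chr15:101266596-101266845 (plus strand), chr2:57124004-57124253 (minus), chr4:48045055-48045304 (plus), chr10:67537619-67537868 (plus, 1 of 5 listed for Egr2) and chr1:52500449-52500698 (minus). On the plus strand the annotated genes begin at 101253902 (Nr4a1), 48045078 (Nr4a3) and 67534469 (Egr2). On the minus strand they begin at 57124003 (Nr4a2) and 52500712 (Nab1). Only the Nr4a2 window thus precedes its whole gene. The windows of Nr4a1, Egr2 and Nab1 lie inside the gene, and so does most of that of Nr4a3.
Nr4a1: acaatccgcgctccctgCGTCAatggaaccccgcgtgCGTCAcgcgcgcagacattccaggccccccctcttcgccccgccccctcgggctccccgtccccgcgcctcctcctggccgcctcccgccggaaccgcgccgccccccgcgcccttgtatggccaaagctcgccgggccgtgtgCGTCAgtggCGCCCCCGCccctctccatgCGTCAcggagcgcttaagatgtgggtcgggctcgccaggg
Nr4a2: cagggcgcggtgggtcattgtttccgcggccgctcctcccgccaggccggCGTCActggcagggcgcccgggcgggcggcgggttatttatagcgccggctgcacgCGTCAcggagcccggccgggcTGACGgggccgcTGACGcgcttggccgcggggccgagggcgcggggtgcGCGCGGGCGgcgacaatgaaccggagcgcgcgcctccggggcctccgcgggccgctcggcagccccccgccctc
Nr4a3: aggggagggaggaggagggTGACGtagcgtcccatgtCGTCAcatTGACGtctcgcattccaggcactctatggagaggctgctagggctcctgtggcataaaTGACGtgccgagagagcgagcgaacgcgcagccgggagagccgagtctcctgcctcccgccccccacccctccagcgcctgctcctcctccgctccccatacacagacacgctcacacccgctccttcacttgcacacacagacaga
Egr2: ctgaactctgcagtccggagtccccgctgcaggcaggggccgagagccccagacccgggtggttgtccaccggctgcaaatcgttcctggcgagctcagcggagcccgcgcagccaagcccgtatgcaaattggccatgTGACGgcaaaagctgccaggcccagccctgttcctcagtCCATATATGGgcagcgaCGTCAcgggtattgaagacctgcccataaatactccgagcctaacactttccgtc
Nab1: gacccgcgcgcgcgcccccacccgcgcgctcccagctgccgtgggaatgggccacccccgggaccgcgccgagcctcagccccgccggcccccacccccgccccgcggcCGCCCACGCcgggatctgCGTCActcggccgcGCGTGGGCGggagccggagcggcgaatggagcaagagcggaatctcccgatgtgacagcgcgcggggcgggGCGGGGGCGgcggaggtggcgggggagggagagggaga

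The 3 Nr4a windows each held 4 CRE cores, whereas 17.8% of the 32841 windows in the table held any and 0.688% held 3 or more. The count was the same in Nr4a2, which was not called, as in Nr4a1 and Nr4a3. The complete CRE (TGACGTCA, which contains 2 overlapping cores) was in none of the members' windows and in 1.55% of all. The printed Egr2 window held 2 cores and a CArG box, which 1.47% of windows hold. It was chosen because it holds both motifs: of the 5 Egr2 windows 3, which overlap, held 2 cores and the CArG box, 1 held a CArG box and 0 cores, and 1 held neither. An EGR site was found once in Nr4a1 and once in Nr4a2 and 3 times in Nab1, against 4.7% of windows with any and 0.14% with 3 or more; 0 were found in the Nab2 window. The MEF2 site by name and the Nr4a response element NBRE (AAAGGTCA) were in none of these windows, and in 0.509% and 1.34% of all. Windows were not matched on base composition or on their place before or inside the gene. A match is a description of letters, not of binding.

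Egr1, the family member most widely used as a marker of MAP kinase signal, fell between DP and CD8SP. Its intensity was 1659 and 1802 for DP, 1531 and 1461 for CD4intCD8+, then 1330.4 and 1127 for CD8SP. The 3 stages did not overlap and ran in the order DP, CD4intCD8+, CD8SP from high to low. Neither step passed the test (log2 change -0.21 ± 0.11, adjusted p = 0.233, and -0.29 ± 0.11, adjusted p = 0.425), but Egr1 fell by 0.50 ± 0.11 from DP to CD8SP (adjusted p = 0.012). This call was lost without DP replicate 2 (-0.44, adjusted p = 0.0815) or CD8SP replicate 2 (-0.38, 0.0877) and without the intensity trend (0.0564); over the 17 alternatives the adjusted p ran from 0.00267 to 0.0877.

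Egr2, which acts with Egr1 and Egr3 in thymocyte selection, also fell between DP and CD8SP. Its brighter probe, 1427683_at, read 538 and 577 for DP, 453 and 429 for CD4intCD8+, then 441 and 335 for CD8SP. DP lay above both later stages, which overlapped with each other. Egr2 fell by 0.53 ± 0.15 from DP to CD8SP (adjusted p = 0.0359), and its change to CD4intCD8+ was -0.33 (95% interval -0.67 to 0.00; adjusted p = 0.175). The second probe, 1427682_a_at, ran the same way with 292 and 298, then 228 and 231, then 228 and 190.0, and fell by 0.49 in the fit over all probes (adjusted p = 0.0444). The Egr2 call was lost without DP replicate 1 (-0.58, adjusted p = 0.106), DP replicate 2 (-0.48, 0.164) or CD8SP replicate 2 (-0.34, 0.209), and also with actin ratio as covariate (-0.46, 0.0737) or without the trend (0.0687). It was called in 12 of 17 alternatives.

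Egr3, the third Egr gene of thymocyte selection, rose on 1 of its 2 probes. The brighter probe, 1436329_at, read 71.0 and 73.3 for DP, 196 and 144 for CD4intCD8+, then 289 and 212 for CD8SP. The 3 stages did not overlap and ran upward in the order of maturation. Egr3 rose by 1.16 ± 0.20 from DP to CD4intCD8+ (adjusted p = 0.00933) and by 1.70 ± 0.20 from DP to CD8SP (adjusted p = 0.000621); the step from CD4intCD8+ to CD8SP, 0.55 ± 0.20, did not pass (adjusted p = 0.402). The call at CD4intCD8+ did not hold once either DP array was left out (adjusted p = 0.0661 without replicate 1 and 0.0649 without replicate 2), and that at CD8SP held in all 17 alternatives.

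The other Egr3 probe, 1421486_at, was not called. It read 67.4 and 58.7 for DP, 55.0 and 71.0 for CD4intCD8+, then 56.1 and 65.0 for CD8SP, with every stage overlapping every other. Its log2 change in the fit over all probes was -0.01 (95% interval -0.44 to 0.42) from DP to CD4intCD8+ and -0.05 (-0.48 to 0.37) from DP to CD8SP. These intervals lie below those of the brighter probe in the same fit (0.70 to 1.61 and 1.25 to 2.15). The rise of Egr3 rests on 1 probe. Averaged over both probes the change was 0.57 and 0.82, still called (adjusted p = 0.0391 and 0.00517).

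**Figure D2:**
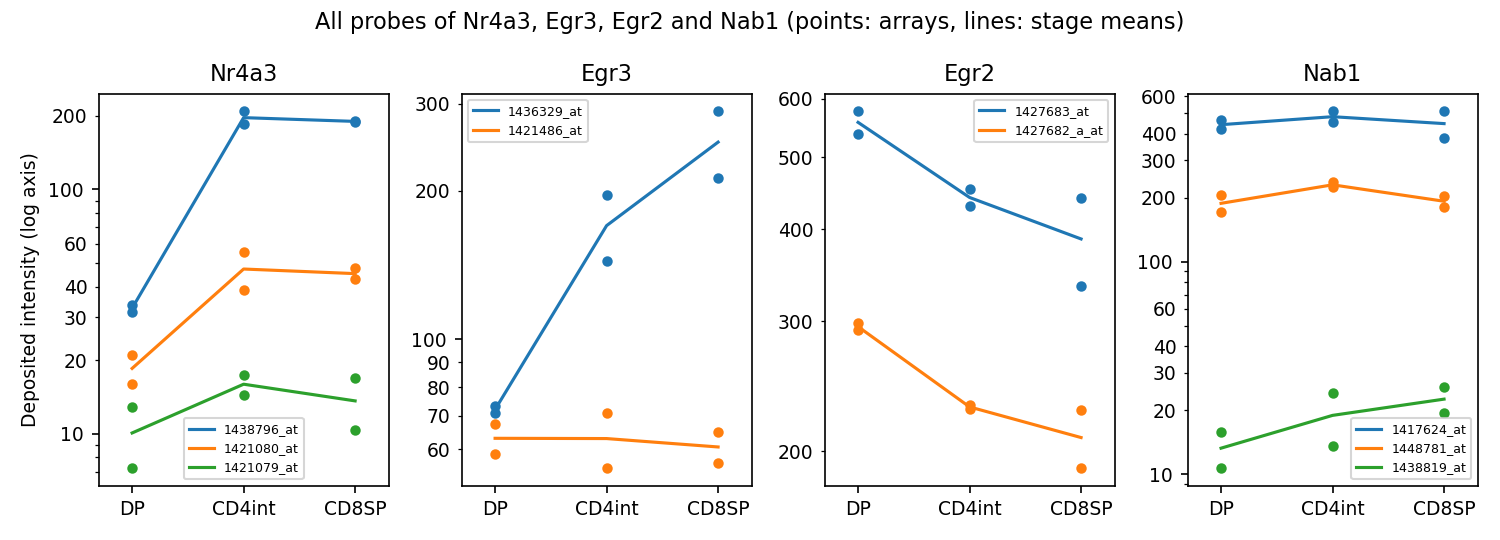
Deposited intensity (log axis) of every probe of Nr4a3, Egr3, Egr2 and Nab1 on each array (points) with stage means (lines), for DP, CD4intCD8+ (CD4int) and CD8SP. The stage means of the 3 Nr4a3 probes have DP lowest, with the steepest step in the brightest probe, and 1 Egr3 probe rises from a mean of 72.1 to 251 and the other stays between 60.6 and 63.1.

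Neither Nab corepressor gene was called in any of the pairwise comparisons. Nab1 (probe 1417624_at) read 464 and 419 for DP, 511 and 453 for CD4intCD8+, then 510.2 and 384 for CD8SP, and all stages overlapped. Its change from DP to CD8SP was 0.00 (95% interval -0.35 to 0.36; adjusted p = 0.990). The second Nab1 probe, 1448781_at, was not called either (0.29 from DP to CD4intCD8+, interval -0.05 to 0.63), and the third averaged under the filter.

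Nab2 read 677 and 722 for DP, 628 and 538 for CD4intCD8+, then 592 and 503 for CD8SP. DP lay above both later stages, in the order of Egr1 and Egr2. The log2 change from DP to CD8SP was -0.35 ± 0.13 (adjusted p = 0.0927), which did not pass; with the replicate number as a block it did (adjusted p = 0.0339), the only 1 of 17 alternatives in which it was called.

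**Figure D3:**
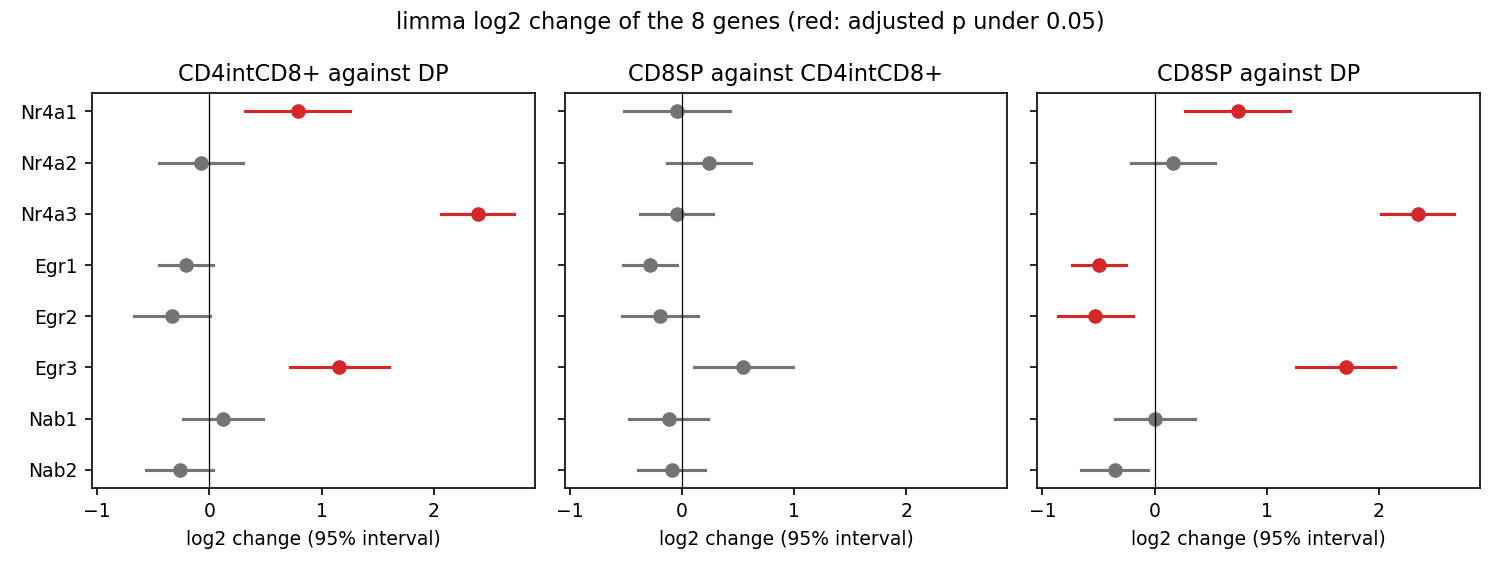
Log2 change (x axis, limma) of each of the 8 genes in the 3 pairwise comparisons, with 95% intervals; red marks an adjusted p under 0.05. Nr4a3, Egr3 and Nr4a1 lie to the right of 0 in both comparisons with DP, Egr1 and Egr2 to the left in CD8SP against DP, and no gene is red between CD4intCD8+ and CD8SP.

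Of the 19 probes 12 passed the filter; tested one by one, 3 rose and 0 fell from DP to CD4intCD8+ (5.36% of all probes tested were called higher and 4.04% lower, 9.39% in all), 0 changed from CD4intCD8+ to CD8SP (0.0697% higher and 0.0232% lower, 0.0929% in all), and 4 rose and 3 fell from DP to CD8SP (9.41% higher and 7.68% lower, 17.1% in all). The Nr4a1 probe missed the threshold in that fit at the first step (adjusted p = 0.0508). In 6 of the 8 genes the arrays of DP and CD4intCD8+ did not overlap, and also in 6 for DP and CD8SP, but with 2 arrays a stage this held for 58.7% and 61.5% of all genes tested; between CD4intCD8+ and CD8SP it held for 3 of 8 and for 38.8%.

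Likeness between the genes was measured as the root mean square difference of log2 values over the 6 arrays, after each gene was centred on its mean. The values were not scaled, so the distance depends on the size of a gene's change, and genes with small changes lie close together. Egr1 and Egr2 were the closest pair of the 8, at 0.07, and each lay 0.09 from Nab2. Nr4a1 and Nr4a3 were 0.78 apart, and Egr3 lay closer to Nr4a1 (0.44) and Nr4a3 (0.53) than to Egr1 (0.91) or Egr2 (0.93). Over all genes tested, those most like Nr4a1 were AA414768 (0.06), Prokr2 (0.07) and Btla, an inhibitory receptor of lymphocytes (0.11). Those most like Nr4a3 were Tnfrsf1b, a receptor for tumour necrosis factor (0.29), Dpy19l1 (0.35) and Chchd10 (0.35), and those most like Egr3 were Zfp52, Gpr18 and B4galnt1 (each 0.13). The nearest gene to Nr4a3, the member with the largest change, was farther away than the nearest to Nr4a1, Egr1, Egr2 or Egr3. Fam102b (0.04), Mterf2 (0.05) and Abhd13 (0.05) lay nearest to Egr1, and BC052688 (0.04), Tram1 (0.05) and Septin6 (0.05) nearest to Egr2. These are descriptions of 6 arrays.

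Immediate early and heat shock genes, which respond to the handling of cells and, for the immediate early genes, also to receptor signals, were set beside these results. Of 12 such genes, Hspa1a and Hspa1b among them, 9 were tested: from DP to CD4intCD8+ 0 rose and 1, Btg2, fell (log2 change -1.29, adjusted p = 0.0105), and in CD8SP against DP again Btg2 alone fell (-1.48, adjusted p = 0.00244). Over all genes 4.84% and 8.35% were called lower, and 11.7% and 19.8% in either direction, so that 1 of 9 is no result about the list. At an unadjusted p under 0.05 the counts were 0 higher in both comparisons and 1 and 3 lower, with no share of all genes given at that threshold. The median log2 changes of the 9 tested were -0.38 and -0.56, against 0.01 for all genes in both. The Btg2 call at the first step was lost without DP replicate 1 (adjusted p = 0.0576) or DP replicate 2 (0.0749) and with the actin covariate (0.0873).

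Within stages, these genes differed between the replicates. Fos intensity was 482 and 44.9 for DP, 411 and 110.0 for CD4intCD8+, then 374 and 132 for CD8SP, replicate 1 being the higher at each stage. Junb gave 247 and 54.7, 157 and 64.7, and 143 and 63.6 at the same stages. Of the 9 tested genes 7 were higher in replicate 1 at all 3 stages, against 18.1% of all genes tested. The exceptions were Btg2, lower in replicate 1 in DP, and the heat shock gene Hspa1b, which differed by 0.03, -0.76 and -1.60 on the log2 scale (replicate 1 minus replicate 2). Among the 8 members Nr4a1, Nr4a2, Nr4a3 and Nab1 were, and Nr4a1 differed by 0.58, 0.42 and 0.26 on the log2 scale between the replicates, against 3.26, 1.85 and 1.46 for Fos. Egr1 did not share this direction in DP, where replicate 1 was lower by 0.12 (a difference of -0.12). The part of this replicate difference in the Nr4a1 result was not tested. The blocked fit cannot decide it, because every stage holds both replicate numbers and the block leaves the change between stages as it was. Nr4a1 kept log2 changes of 0.79 (CD4intCD8+) and 0.74 (CD8SP) against DP. Its calls also stayed, from which no conclusion is drawn.

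**Figure D4:**
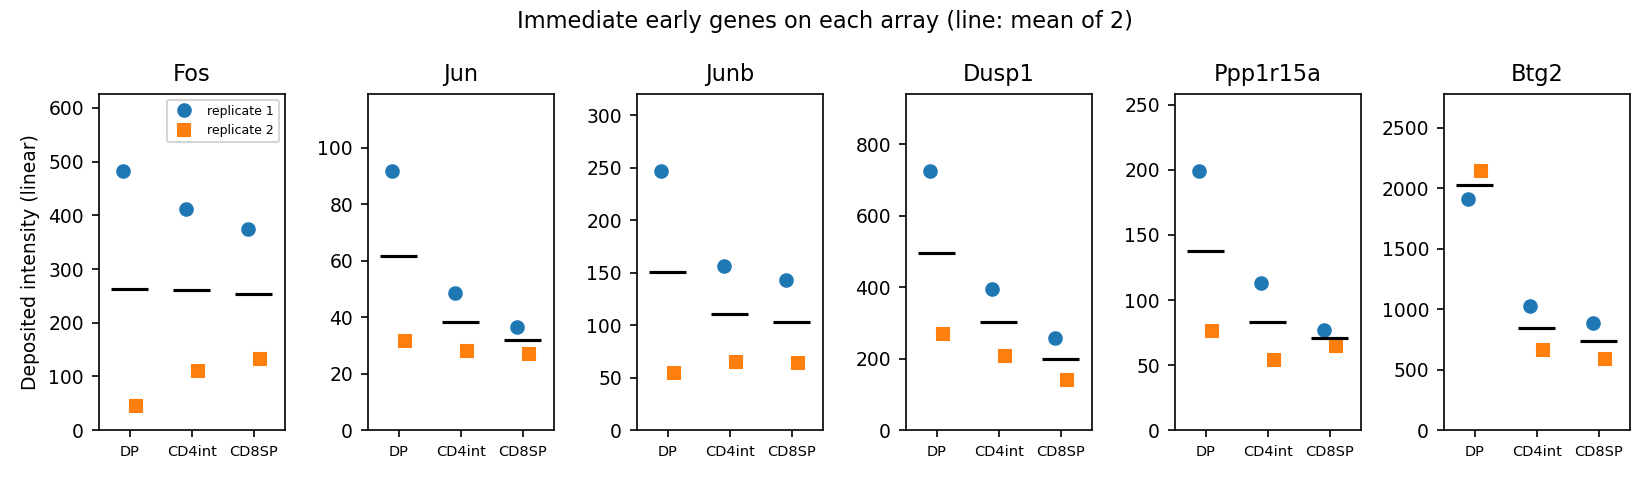
Deposited intensity (linear, y axis from 0) of 6 immediate early genes on each array by stage (CD4int is CD4intCD8+); circles are replicate 1, squares replicate 2 and lines the mean of 2. Fos, Jun, Junb, Dusp1 and Ppp1r15a are higher in replicate 1 at every stage, while Btg2 is lower in both later stages than in DP.

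Response genes of T cell receptor signals, many of them reported targets of Egr or Nr4a factors, were called in both directions. Of 25 listed genes 21 were tested. The blocked fit called 8 of them higher and 4 lower from DP to CD4intCD8+, and 1456 and 1106 of all 10916 genes tested. In the main fit 5 rose and 2 fell, where 6.86% of all genes were called higher and 4.84% lower. The median log2 change of the 21 was 0.13 against 0.01 for all genes. The rises were Myc, a driver of cell growth (35.8 to 106 in mean intensity, log2 change 1.44 ± 0.21, adjusted p = 0.00586), Ndrg1, a reported Egr2 target linked to anergy (1.20 ± 0.19), the inhibitory receptor Pdcd1 (1.16 ± 0.15), and, named after their values were seen, the costimulatory receptor Tnfrsf9 (0.98) and the Ikaros family factor Ikzf2 (0.57). Socs1, an inhibitor of cytokine signals, fell by 1.34 ± 0.20 and Tox, named after its value was seen, by 0.76 ± 0.16. Gadd45b had a change of 1.02 and was not called (adjusted p = 0.0910).

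From DP to CD8SP 4 of these genes rose, Myc (2.23), Ndrg1 (1.54), Pdcd1 (1.03) and Cblb (0.84), against 11.5% of all genes. Falls numbered 3, Tox (-1.19), Socs1 (-1.15) and Cd5 (-0.33), against 8.35%. Cblb and Cd5 were named after their values were seen. With the block 7 rose and 4 fell, where 1850 and 1427 of all 10916 genes tested were called higher and lower. From CD4intCD8+ to CD8SP 0 of the 21 passed the limma test and 3 had an unadjusted p under 0.05, with no share of all genes given at that threshold. Myc and Pdcd1 kept both calls with each array left out in turn. Without DP replicate 2 only 2 genes rose at the first step, as Ndrg1 (adjusted p = 0.0599), Tnfrsf9 (0.0658) and Ikzf2 (0.196) lost their calls, and so did Tox (0.0749). With the actin covariate Tox (-0.39, 0.317) and Socs1 (0.0595) were not called at this step. Without DP replicate 1 Socs1 (0.0574), Tox (0.129), Tnfrsf9 (0.153) and Ikzf2 (0.0699) lost their calls. Ikzf2 was also lost without CD4intCD8+ replicate 1 (0.128) or 2 (0.0665), Tnfrsf9 without CD4intCD8+ replicate 1 (0.0610) and Tox without CD4intCD8+ replicate 2 (0.101). In CD8SP against DP, Cblb lost its call without DP replicate 2 (0.0539), Socs1 without DP replicate 1 (0.0524), and Cd5 without any 1 of the DP or CD8SP arrays (0.0924 to 0.190). Cd5 was also lost with no filter (0.0732), quantile normalization (0.0987), the mean of all probes (0.0526), no trend (0.141) and the actin covariate (0.0891). At the first step Ikzf2 was lost with the mean of all probes (0.0924) and no trend (0.0846), and Tox with no trend (0.0516).

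Among genes that switch on or hold back Egr and Nr4a transcription, 5 were lower at the intermediate stage. Of 26 listed 21 were tested. The blocked fit called 0 of them higher and 7 lower from DP to CD4intCD8+, and 1456 and 1106 of all genes tested. At an unadjusted p under 0.05 in limma's test the counts were 2 and 6, with no share of all genes given at that threshold. At the adjusted threshold of the main fit 0 rose and 5 fell (6.86% and 4.84% over all genes), and the median was -0.22. The falls were Hdac7, a deacetylase that represses Nr4a1 in thymocytes (-0.73 ± 0.13, adjusted p = 0.0108), Mef2d, a factor that binds the Nr4a1 promoter (-0.61), the NFAT factor Nfatc3 (-0.55), and, named after their values were seen, the kinase gene Prkd2 (-0.43) and Rasgrp1, an activator of Ras (-0.41). Hdac7 read 597 and 604 for DP, 382 and 336 for CD4intCD8+, then 328 and 375 for CD8SP, with both later stages under DP. Leaving out either DP replicate 1 or 2 ended each of the 5 calls (adjusted p from 0.0577 to 0.210), and the actin covariate those of all but Nfatc3 (0.0989 to 0.389). Without CD4intCD8+ replicate 2 all 5 were lost too (0.0534 to 0.218), Nfatc3, Prkd2 and Rasgrp1 without CD4intCD8+ replicate 1 (0.0682 to 0.0814), and Prkd2 without either CD8SP array (0.0529 and 0.0527). With no trend the calls of all but Hdac7 were lost (0.0520 to 0.0980), with the mean of all probes those of Mef2d (0.0994), Prkd2 (0.0908) and Rasgrp1 (0.167), and Prkd2 also with no filter (0.0551), quantile normalization (0.0535) or only the arrays compared (0.0521).

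In CD8SP against DP the blocked fit called 4 of these genes higher and 8 lower, and 1850 and 1427 of all genes tested. The main fit called 4 higher and 5 lower, against 11.5% and 8.35% over all genes. The rises were Hdac4 (1.04 ± 0.20), Nfatc2 (1.04 ± 0.16), the calcineurin subunit Ppp3ca (0.84) and Nfatc1 (0.56), and the falls Hdac7 (-0.76), Rasgrp1 (-0.52), Mef2a (-0.49), the kinase Prkcq (-0.48) and Nfatc3 (-0.41), the last 4 named after their values were seen. Nfatc2, Hdac7 and Rasgrp1 kept their calls with each array left out in turn. Without DP replicate 1 the calls of Hdac4 (adjusted p = 0.0538), Ppp3ca (0.103), Nfatc1 (0.111), Mef2a (0.103), Prkcq (0.142) and Nfatc3 (0.136) were lost, and without DP replicate 2 those of Ppp3ca, Nfatc1, Mef2a, Prkcq and Nfatc3 (0.0713 to 0.232). Calls were also lost without CD8SP replicate 1 for Ppp3ca (0.239), Nfatc1 (0.207) and Nfatc3 (0.151), and without CD8SP replicate 2 for Hdac4 (0.0636), Mef2a (0.119), Prkcq (0.161) and Nfatc3 (0.101). With the mean of all probes Hdac4 changed by 0.35 and Nfatc1 by 0.31, and neither was called (0.464 and 0.214); nor was Nfatc3 (0.0505). With no trend the calls of Nfatc1 (0.0627), Nfatc3 (0.0788), Ppp3ca (0.0714) and Prkcq (0.0767) were lost, and with no filter those of Nfatc1 (0.0510), Nfatc3 (0.0504) and Ppp3ca (0.0700). Quantile normalization ended those of Nfatc3 (0.0518) and Ppp3ca (0.0578), and the actin covariate that of Prkcq (0.0559). From CD4intCD8+ to CD8SP 0 of the 21 were called and 2 had an unadjusted p under 0.05. For this count and the partner counts below, no share of all genes at that threshold is given. Of 8 partner genes 6 were tested and 0 were called in the 3 pairwise comparisons (1, 1 and 0 at an unadjusted p under 0.05): Rxra and Rxrb, which dimerise with Nr4a1 and Nr4a2, and 4 chromatin corepressors. The blocked fit called 0 of these 6 higher and 1 lower from DP to CD4intCD8+, and 1456 and 1106 of all genes tested. Egr4, the remaining family member, lay under the filter, at means of 13.6, 17.5 and 14.3.

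**Figure D5:**
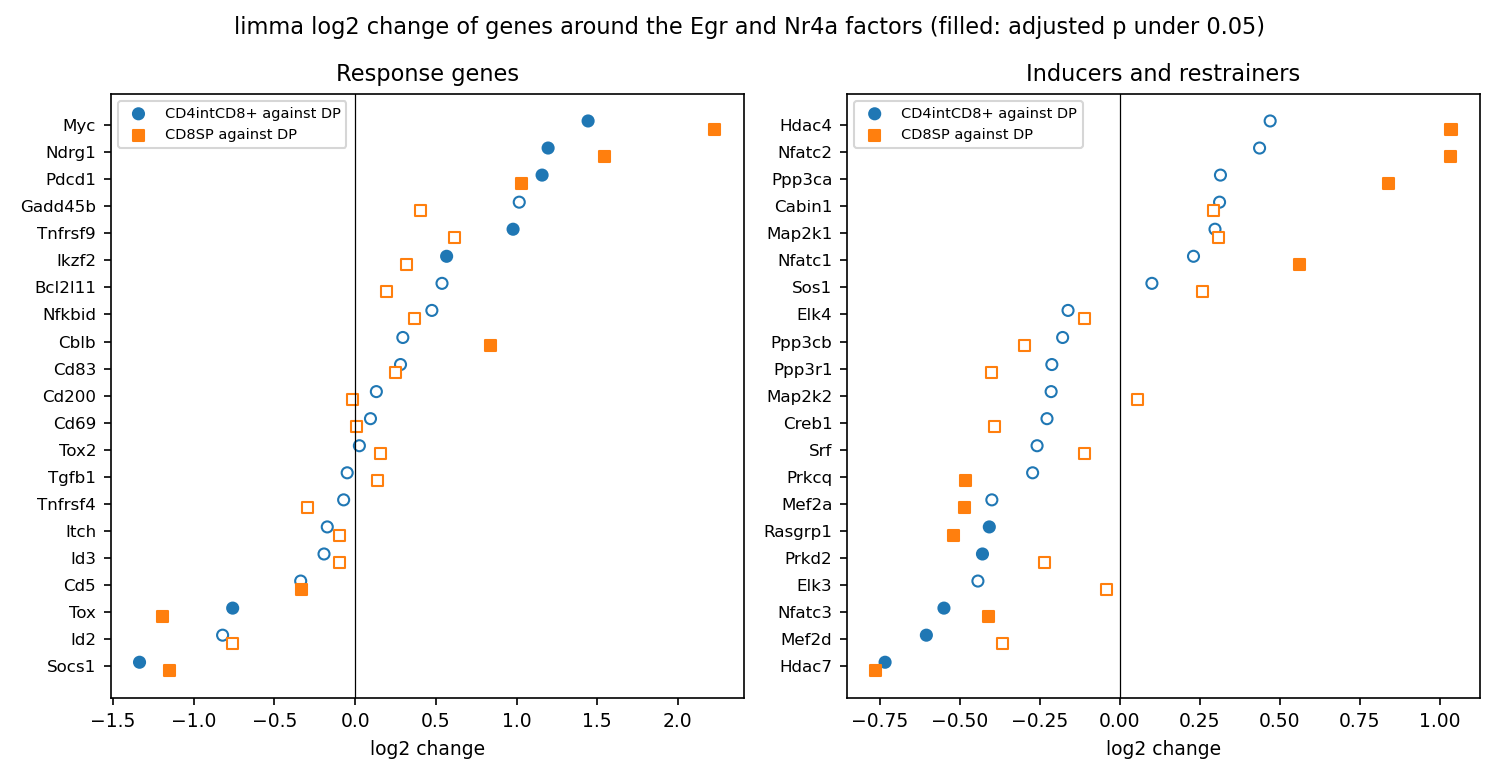
Log2 change (x axis, limma) of the tested response genes (left) and of the tested inducers and restrainers of Egr and Nr4a transcription (right), for CD4intCD8+ against DP (circles) and CD8SP against DP (squares); filled symbols have an adjusted p under 0.05. Both comparisons share the DP arrays. Myc reaches 2.23 on the left, and Hdac7 lies lowest on the right at -0.76.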

How the data were processed

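Gene expression was measured on 6 arrays, 2 for each of 3 sorted stages, grouped by sample title. The deposited table gives a linear intensity per probe and array, and the authors' software, scaling and background step are not given in the sources used here; 3.60% of values lay below 0 and array medians were 24.9 to 25.7. Their number limits the precision.

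Negative intensities became 0 before log2(intensity + 5.84) was computed, 5.84 being the 10th percentile of positive values. The probe with the highest mean stood for its gene, and genes under the 40th percentile (an intensity of 30.8) were left out, which kept 10916. With R 4.3.3 and limma 3.58.1 all arrays were fitted together (lmFit, eBayes with an intensity trend, stage as the only term, 3 residual degrees of freedom); errors after ± are standard errors. The script was tested on simulated data. Probes were also fitted one by one with the same filter.

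Within-stage deviations of the same replicate number correlated at 0.26, 0.21 and 0.30 between stages, and the numbers may mark the 2 experiments. The main fit nevertheless has no replicate term, so its calls do not use this pairing. The pairing enters only the alternative fit with the replicate block. That block raised the genes called from DP to CD4intCD8+ from 749 higher and 528 lower to 1456 and 1106.

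The members and gene lists were chosen with earlier results of these data known. The text names the 8 members with all their probes, up to 5 members of each list (response genes, inducers, partners) with the largest change in each pairwise comparison, and the 3 genes most like each called member; other names are marked. Alternatives were a pseudocount of 1 or 50, no filter or a 60th percentile filter, quantile normalization, the mean of all probes, no trend, only the arrays compared, the replicate block, the actin ratio as a covariate, and each array left out.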

Additional observations from a re-analysis of the deposited data

How the results depend on the processing

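Of 524 values of the 8 genes under the alternatives, 477 kept their direction and their side of the threshold, 29 lost a call, 1 gained one (Nab2 with the replicate block, given in the report) and 17 changed sign, none of these called in either fit. For the count of members that rose from DP to CD4intCD8+ (3), leaving out an array gave 1 to 3. For CD8SP against DP, the count that fell (2) was 0 without the intensity trend, 1 with the actin covariate and 0 to 2 with an array left out. For CD4intCD8+ set against DP and CD8SP averaged, the count (1, Nr4a3) was 0 with a pseudocount of 50, without the filter, after quantile normalization, with the mean of all probes and without the trend, and 0 to 1 with an array left out. The count that rose from DP to CD4intCD8+ was also lower without the filter, with the mean of all probes or without the trend, as Nr4a1 lost its call. In CD8SP against DP the count that rose (3) was 2 without the intensity trend. The causes were not tested.

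Sign changes of values not called: with the actin covariate, Egr2 (0.041), Nab2 (0.071) and Nr4a2 (0.0051) at CD4intCD8+ against the average, and Nr4a2 (0.14) from DP to CD4intCD8+. With 1 array left out in turn, some log2 values kept their sign and others changed it. Over these fits the values against the average ran from -0.021 to 0.098 (Egr1), -0.17 to 0.029 (Egr2) and -0.20 to 0.025 (Nab2). From DP to CD4intCD8+ they ran from -0.23 to 0.077 (Nr4a2), and from DP to CD8SP from -0.20 to 0.21 (Nab1). From CD4intCD8+ to CD8SP they ran from -0.32 to 0.084 (Nab1), -0.21 to 0.025 (Nab2), -0.25 to 0.16 (Nr4a1) and -0.13 to 0.039 (Nr4a3). The replicate block changed no other call of the 8 genes than that of Nab2.

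Over all genes, the counts called higher and lower were 749 and 528 from DP to CD4intCD8+ (112 to 1456 and 75 to 1106 over the alternatives), 1255 and 911 from DP to CD8SP (605 to 1850 and 403 to 1427), and 11 and 2 from CD4intCD8+ to CD8SP (1 to 137 and 1 to 90). For CD4intCD8+ set against DP and CD8SP averaged they were 1 and 0 (0 to 136 and 0 to 79). Each highest count came with the replicate block. With the mean of all probes Nr4a2 fell under the filter and gave no value. The comparison of only the arrays concerned was not run against the mean of the other stages, which uses all 6. Signal near background limits Nr4a2, Egr4 and the DP level of Nr4a3.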
